A study of Mus musculus with 6 samples.

Results

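The transcripts of 10 integrin subunits were followed in primary chondrocytes, the cells of cartilage. They were Itga1, Itga2, Itga3, Itga5, Itga10, Itga11, Itgav, Itgb1, Itgb3 and Itgb5. The members were taken by gene symbol from the deposited table of 47480 genes, where each of the 10 matched 1 row. A2ARKO chondrocytes came from neonatal mice with a global knockout of Adora2a, the gene of an adenosine receptor that raises cAMP, on a C57BL/6 background. WT chondrocytes came from neonatal C57BL/6 mice of the same facility. Neither group carries a stated treatment. The cells of a litter were pooled after trypsin digestion to make 1 library, and each genotype had 3 litters, so single animals cannot be told apart. The study looks for factors behind osteoarthritis, a disease of the joint in which the cartilage breaks down. Levels are given in FPKM, fragment counts scaled by gene length and library total. The gene lengths used are not stated, and the order of different genes by level and their shares rest on those lengths.

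Integrins are receptors made of 1 alpha and 1 beta chain that span the cell membrane and tie the matrix outside to the actin cytoskeleton inside. The alpha chains encoded by Itga1, Itga2, Itga10 and Itga11 pair with the chain encoded by Itgb1 and bind collagens. Itga10 is known from differentiated cartilage cells, and Itga11 from fibroblasts and other mesenchymal cells that meet fibrillar collagen. Itga5 with Itgb1 forms the classical fibronectin receptor, Itga3 with Itgb1 mainly a laminin receptor, and Itgav pairs with Itgb1, Itgb3 or Itgb5 to bind vitronectin, fibronectin and osteopontin.

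Adora2a read 0.41, 0.54 and 0.66 FPKM in A2ARKO replicates 1, 2 and 3, against 9.36, 7.31 and 3.46 FPKM in WT replicates 1, 2 and 3, and every member below is listed in the same library order. Sequencing depth, read from the step that 1 read adds to short genes, came to 51.5 to 58.1 M reads (M, mega) in A2ARKO and 41.6 to 52.6 M reads in WT. A pair of WT libraries stood apart. WT replicate 1 was rich in cartilage transcripts: Col2a1, the chain of cartilage collagen, read 1363, 2939 and 3887 FPKM in A2ARKO and 18662, 808 and 185 FPKM in WT. The 16 of 18 chondrocyte markers found in the table summed to 2325 to 6580 FPKM in A2ARKO, against 26538, 1362 and 494.7 FPKM in WT, with none of them at 0. WT replicate 2 held most of the markers of macrophages and other leukocytes (14 of 14 found, 27.2 to 55.5 FPKM summed in A2ARKO, against 189.4, 1972 and 138.9 FPKM in WT) and of skeletal muscle (9 of 9 found, 12.7 to 36.5 FPKM in A2ARKO, against 10.2, 1427 and 23.5 FPKM in WT). Across all genes, limma on log2(FPKM + 1) called 589 of 11595 tested genes at a Benjamini-Hochberg adjusted p below 0.05. That was 5.08% of them, 3.31% higher and 1.77% lower in A2ARKO.

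The upstream sequences of the 3 collagen-binding alpha genes with appreciable transcript are shown here because they pair with the same beta chain but differed in how their transcripts moved between the litters. Each is the 250 bases before the start annotated by RefSeq, 5′ to 3′ on the gene's own strand, on GRCm38.p6. For Itga11 the window ends at 62677854, past the gene start of 62677826 given below. Its last bases therefore lie inside the gene as placed there. Capitals mark a match to GGAAGT, the core bound by ETS factors, on either strand. They cover chr9:62677605-62677854 (plus strand) for Itga11, chr3:96645334-96645583 (plus strand) for Itga10 and chr13:115101965-115102214 (minus strand) for Itga1.
Itga11: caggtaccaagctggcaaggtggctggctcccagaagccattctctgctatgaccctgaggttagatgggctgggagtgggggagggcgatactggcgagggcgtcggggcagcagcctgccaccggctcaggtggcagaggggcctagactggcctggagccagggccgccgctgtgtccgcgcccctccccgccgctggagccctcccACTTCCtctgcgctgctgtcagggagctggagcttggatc
Itga10: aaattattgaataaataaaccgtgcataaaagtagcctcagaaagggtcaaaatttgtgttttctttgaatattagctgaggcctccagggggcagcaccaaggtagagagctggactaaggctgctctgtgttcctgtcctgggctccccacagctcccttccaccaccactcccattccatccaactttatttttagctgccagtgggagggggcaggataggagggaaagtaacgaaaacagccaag
Itga1: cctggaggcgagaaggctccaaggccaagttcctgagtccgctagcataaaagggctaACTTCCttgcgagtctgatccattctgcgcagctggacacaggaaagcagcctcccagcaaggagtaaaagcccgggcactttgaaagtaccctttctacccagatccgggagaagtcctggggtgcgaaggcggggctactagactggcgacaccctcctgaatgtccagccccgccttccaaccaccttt
The Itga11 and Itga1 stretches each held 1 such match and the Itga10 stretch none, where 19.7% of 32851 promoters of the same length held 1 or more. The 3 stretches differed in base composition, with 68.4% G and C for Itga11, 48.0% for Itga10 and 57.6% for Itga1, against a median of 52.4% over all promoters. RefSeq windows matched 9 of the 10 members. In the windows of these 9, searched on both strands, the GC box GGGCGG was found for Itga3, Itga5, Itgb1 and Itgb5 (32.7% of all promoters). The core TGACG of the cAMP response element was found for Itgb1 alone of the 9 (17.8% of all promoters). The AP-1 element TGANTCA (6.75% of all promoters) and the TATA box TATAAA (12.4% of all promoters) were found for none. These are letter matches in a short window.

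Of the 10 members, Itga11 alone passed the test, and it fell. Itga2 did not reach the level required for testing, 1 FPKM in at least 3 of the 6 libraries, so 9 members were tested. Of these 9, 1 was called, or 11.1%. Over all tested genes 5.08% were called in either direction and 1.77% were called lower. From 1 call nothing is read about the members as a set. The 3 A2ARKO values all lay below the 3 WT values for Itga11, Itgb3 and Itga2, and the groups overlapped for the other 7 members. Among the 9 tested members that is 2, both lower in A2ARKO, where 14.9% of all tested genes lay lower without overlap and 32.9% did so in either direction. The median log2 difference of the 9 tested members was -0.06, against 0.0 over all tested genes.

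**Figure D1:**
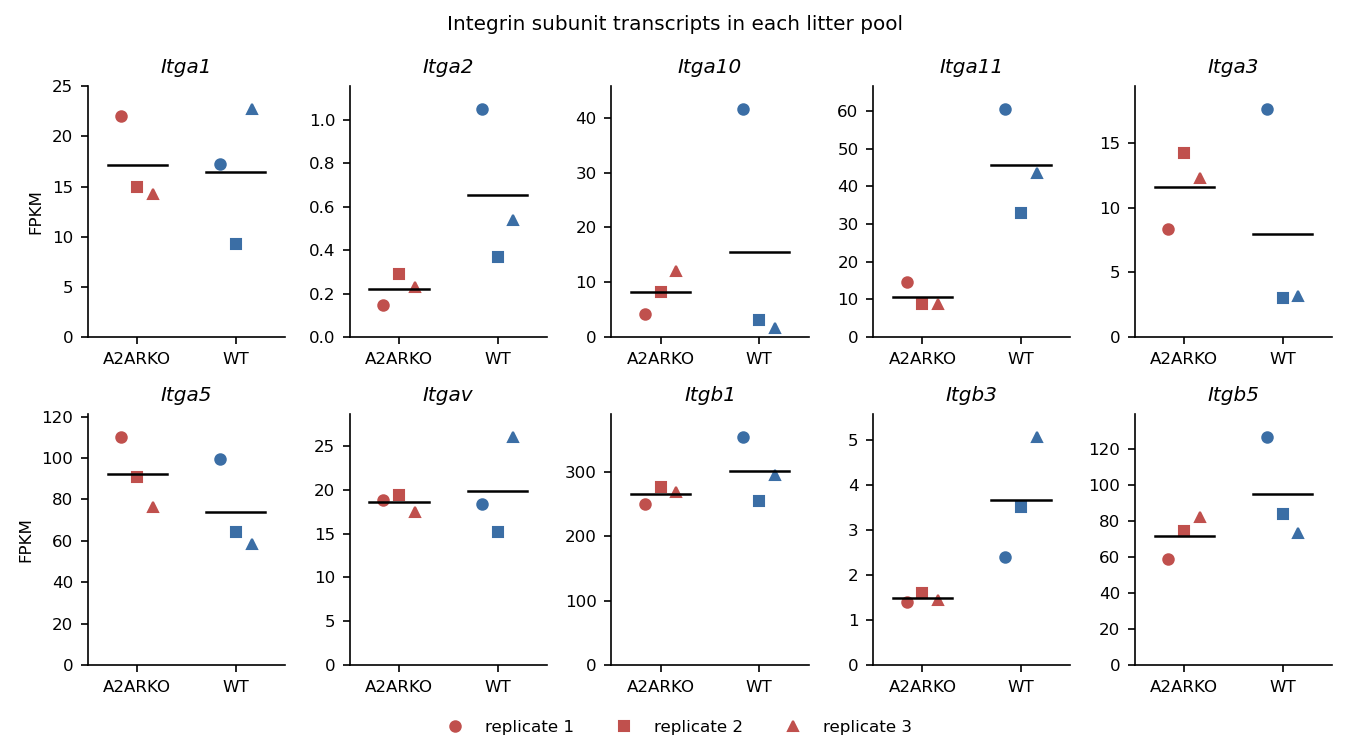
FPKM of each of the 10 integrin subunits (y axis, linear from 0, a scale for each gene) in A2ARKO and WT libraries; each symbol is 1 litter pool, marked by replicate, and the line is the mean of 3. Itga11, Itgb3 and Itga2 show no overlap between the groups, and Itga10 and Itga3 have their highest value in WT replicate 1.

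**Figure D2:**
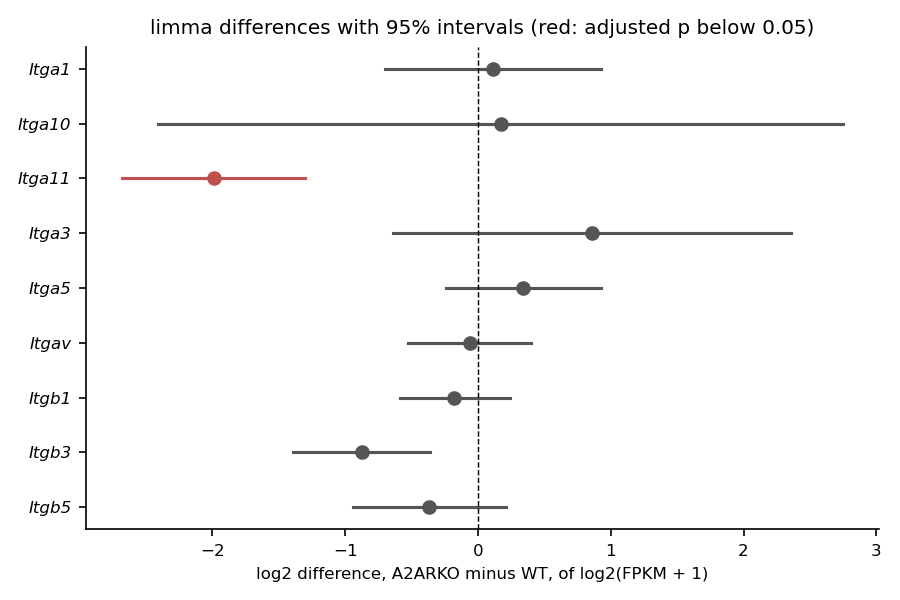
Difference between A2ARKO and WT on the log2(FPKM + 1) scale (x axis) for the 9 tested subunits, with 95% intervals from limma. Itga11, at -1.99, is the 1 subunit past the threshold, and the interval of Itga10 is the widest, from -2.41 to 2.75.

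Itga11 (Ensembl ENSMUSG00000032243, mm10 chromosome 9, 62677826 to 62783982, plus strand) encodes the collagen-binding alpha chain of mesenchymal cells. It read 14.67, 8.71 and 8.67 FPKM in A2ARKO, against 60.59, 32.85 and 43.69 FPKM in WT. The highest A2ARKO library lay well below the lowest WT library. The mean was 10.7 ± 3.45 FPKM in A2ARKO and 45.7 ± 14.0 FPKM in WT (SD, n = 3 each), 4.28-fold lower in A2ARKO. The log2 difference was -1.99 with a standard error of 0.28 and a 95% interval of -2.68 to -1.30 (limma adjusted p = 0.0216). With each library left out in turn it ranged from -2.23 to -1.77. The call was lost without A2ARKO replicate 2 (limma adjusted p = 0.104) or replicate 3 (0.10) and with no filter on low values (0.0533), and over all alternatives the adjusted p ranged from 0.0136 to 0.104. In bulk RNA, fewer cells that express a gene and less RNA per cell cannot be told apart. Fibroblast markers (13 of 13 found, none at 0 in all libraries) summed to 3799 to 5103 FPKM in A2ARKO and 6637 to 9493 FPKM in WT, and the collagen genes Col1a1, Col1a2 and Col3a1 carried most of that sum. The sum of the other 10 ran the other way, also without overlap. It was 1061 to 1783 FPKM in A2ARKO and 695.8 to 989.3 FPKM in WT. Dcn made up a large part of it, with 376.28 to 1053 FPKM in A2ARKO and 180.44 to 386.92 FPKM in WT, which overlapped. S100a4 added 292.77 to 373.28 FPKM in A2ARKO and 99.98 to 177.79 FPKM in WT. Single genes among these 10 went both ways. Dpt (log2 difference -2.22, limma adjusted p = 0.0354) and Twist1 (-0.64, 0.0457) were called lower, and S100a4 (1.34, 0.0429) was called higher. Of the 12 tested fibroblast markers 6 had a difference above 0 and 6 below (median log2 difference -0.31). By limma 1 was called higher and 2 lower, where 5.08% of all tested genes were called. An unadjusted p below 0.05 was found for 9 of the 12, where 24.7% of all tested genes had one. Without overlap, 5 of the 12 lay lower in A2ARKO and 1 higher, where 14.9% and 18.0% of all tested genes did. Tendon markers (5 of 5 found) summed to 329.4 to 338.2 FPKM in A2ARKO and 402.5 to 1241 FPKM in WT, without overlap. All 5 had a difference below 0 (median log2 difference -0.74), and 0 were called by limma. Osteoblast markers (8 of 8 found) summed to 40.4 to 70.8 FPKM in A2ARKO and 519.5 FPKM in WT replicate 1. The other WT libraries lay below the A2ARKO range. Of the 4 tested, 1 had a difference above 0 and 3 below, with 0 called. The part of these marker lists in the Itga11 result was not tested. The Itga11 difference was -1.77 without WT replicate 1 (limma adjusted p = 0.0267) and -2.21 without WT replicate 2 (0.0329).

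Itga10 (ENSMUSG00000090210, mm10 chromosome 3, 96645584 to 96664519, plus strand) encodes the collagen-binding alpha chain of differentiated cartilage cells. It read 4.30, 8.22 and 12.08 FPKM in A2ARKO, against 41.61, 3.10 and 1.58 FPKM in WT. WT replicate 1 was the highest of the 6 libraries, and the other WT libraries were the lowest. The log2 difference was 0.17 (standard error 1.06, 95% interval -2.41 to 2.75, limma adjusted p = 0.942). It was 1.41 without WT replicate 1 (limma adjusted p = 0.104), -0.28 without WT replicate 2, -0.62 without WT replicate 3 and -0.13 without A2ARKO replicate 3, so no direction could be given. Over all alternatives its adjusted p ranged from 0.104 to 0.974. The order of the libraries by Itga10 was the same as that by the summed chondrocyte markers, 2325, 4678 and 6580 FPKM in A2ARKO and 26538, 1362 and 494.7 FPKM in WT. Of the 16 chondrocyte markers tested, 15 had a difference above 0 and 0 were called by limma (also 0 at an unadjusted p below 0.05). Over the whole table, 5840 of 11595 tested genes had a difference above 0. There 5.08% were called and 24.7% had an unadjusted p below 0.05. The part of the cartilage content of WT replicate 1 in these values was not tested. The annotation places 33.5% of the exonic bases of Itga10 also in Gm42957, a gene model on the same strand. Gm42957 read at most 0.08 FPKM. How reads on the shared bases were counted is not stated, so the level of Itga10 and its shares and ratios may be affected.

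Itga1 (ENSMUSG00000042284, mm10 chromosome 13, 114953096 to 115101964, minus strand), encoding a chain that binds basement membrane collagen as well as fibrillar collagen, read 22.05, 15.0 and 14.26 FPKM in A2ARKO, against 17.26, 9.23 and 22.74 FPKM in WT. The groups overlapped, and the WT libraries held both the highest and the lowest value. The log2 difference was 0.11 with a 95% interval of -0.70 to 0.93 (limma adjusted p = 0.867), which leaves room for 0.616-fold to 1.90-fold on the log2(FPKM + 1) scale. It was -0.07 without A2ARKO replicate 1 and -0.23 without WT replicate 2. Itga2 (ENSMUSG00000015533, mm10 chromosome 13, 114833081 to 114932100, minus strand), the collagen-binding chain of platelets and epithelia, was the lowest member in every library. It read 0.15, 0.29 and 0.23 FPKM in A2ARKO, against 1.05, 0.37 and 0.54 FPKM in WT, about 55 to 312 reads at the estimated depths and annotated length. The mean was 0.223 ± 0.0702 FPKM in A2ARKO and 0.653 ± 0.354 FPKM in WT (SD, n = 3 each), 2.93-fold lower in A2ARKO, with p = 0.1 by a two-sided exact permutation test. No smaller p is possible with 3 libraries in each genotype.

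Within the collagen-binding alpha chains, the make-up of the pool differed between the genotypes. Itga11 held 35.6%, 27.0% and 24.6% of the summed FPKM of the 4 genes in A2ARKO, against 50.3%, 72.1% and 63.7% in WT. Itga1 held 53.6%, 46.6% and 40.5% in A2ARKO, against 14.3%, 20.3% and 33.2% in WT. Itga1 was therefore the most abundant of the 4 in each A2ARKO library, and Itga11 in each WT library. The summed level of the 4 genes was 41.2, 32.2 and 35.2 FPKM in A2ARKO, against 120.5, 45.6 and 68.6 FPKM in WT. The shares are a description computed after the values were seen, and they are not independent of the fall of Itga11 itself. The log2 ratio of Itga11 to Itga10, each with 1 FPKM added, was 1.56, 0.07 and -0.44 in A2ARKO, against 0.53, 3.05 and 4.11 in WT. These values overlapped, and the difference of -2.16 had p = 0.2 by a two-sided exact permutation test. Leaving out WT replicate 1 gave -3.18, and leaving out WT replicate 3 gave -1.39. The log2 ratio of Itga1 to Itga10 averaged 1.05 ± 0.97 in A2ARKO and 1.1 ± 2.22 in WT (SD, n = 3 each; exact permutation p = 1.0). No direction could be given for it, since the difference was -0.05 with all libraries, 1.0 without WT replicate 3 and -1.21 without WT replicate 1.

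**Figure D3:**
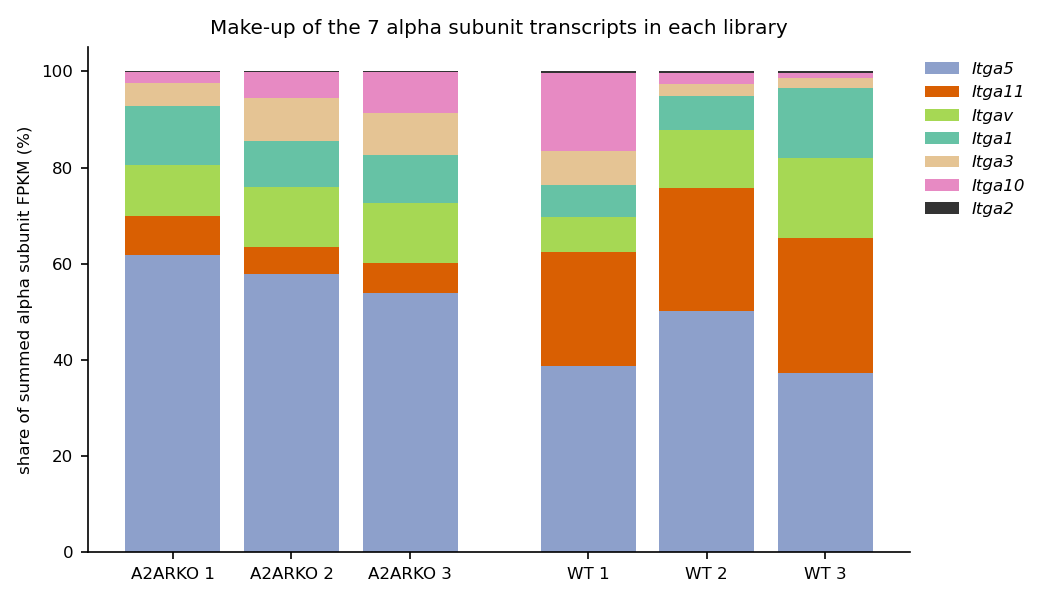
Share of the summed FPKM of the 7 alpha subunit genes (y axis, in percent) held by each gene in each library. Itga11 takes 5.56% to 8.21% in the A2ARKO libraries and 23.7% to 28.0% in the WT libraries, and Itga10 takes 16.3% in WT replicate 1.

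Itga5 (ENSMUSG00000000555, mm10 chromosome 15, 103344286 to 103366763, minus strand), the alpha chain of the fibronectin receptor, was the most abundant alpha subunit in all 6 libraries. It read 110.33, 90.74 and 76.35 FPKM in A2ARKO, against 99.26, 64.16 and 58.23 FPKM in WT. WT replicate 1 lay among the A2ARKO libraries and the other WT libraries below them. For Itga5 the log2 difference was 0.34 with a 95% interval of -0.24 to 0.93 (limma adjusted p = 0.435), and it was 0.57 without WT replicate 1 (adjusted p = 0.109, within a range of 0.109 to 0.729 over all alternatives). Its share of the summed alpha subunit FPKM was 61.8%, 57.9% and 54.0% in A2ARKO, against 38.8%, 50.1% and 37.3% in WT. Here too the share rests in part on the fall of Itga11, whose share was 8.21%, 5.56% and 6.13% in A2ARKO, against 23.7%, 25.7% and 28.0% in WT.

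Itgav (ENSMUSG00000027087, mm10 chromosome 2, 83724397 to 83806916, plus strand), the alpha chain shared by the vitronectin receptors, read 18.81, 19.45 and 17.48 FPKM in A2ARKO, against 18.37, 15.25 and 26.11 FPKM in WT. The A2ARKO libraries lay close together inside the WT range. For Itgav the log2 difference was -0.06 with a 95% interval of -0.53 to 0.40 (limma adjusted p = 0.873), and it was 0.14 without WT replicate 3. The log2 ratio of Itga5 to Itgav averaged 2.24 ± 0.22 in A2ARKO and 1.83 ± 0.64 in WT (SD, n = 3 each), a difference of 0.41 with p = 0.4 by a two-sided exact permutation test. Leaving out WT replicate 3 gave 0.05, and leaving out WT replicate 1 gave 0.67.

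Itga3 (ENSMUSG00000001507, mm10 chromosome 11, 95044474 to 95076801, minus strand), the alpha chain of a laminin receptor, read 8.36, 14.23 and 12.31 FPKM in A2ARKO, against 17.65, 3.03 and 3.19 FPKM in WT. As with Itga10, WT replicate 1 was the highest library and the other WT libraries the lowest. With all 6 libraries the log2 difference was 0.86 with a 95% interval of -0.64 to 2.36 (limma adjusted p = 0.442). Without WT replicate 1 the log2 difference was 1.59 with a limma adjusted p of 0.0224, and over all alternatives the adjusted p ranged from 0.0224 to 0.702. With that library left out, 3 members passed (Itga11, Itgb3 and Itga3) and 900 genes passed over the whole table. The whole-table count was 300 without WT replicate 2, 852 without WT replicate 3 and 120, 50 and 75 without A2ARKO replicates 1, 2 and 3.

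Itgb1 (ENSMUSG00000025809, mm10 chromosome 8, 128685654 to 128733200, plus strand), the partner of most alpha chains here, was the most abundant member in every library. It read 249.75, 277.0 and 269.07 FPKM in A2ARKO, against 355.41, 255.29 and 295.89 FPKM in WT. The lowest WT library lay among the A2ARKO libraries. Between genotypes Itgb1 differed by -0.18 on the log2 scale with a 95% interval of -0.59 to 0.24 (limma adjusted p = 0.581), or 0.663-fold to 1.18-fold. Set against the sum of the 6 alpha genes that pair with it alone, its log2 ratio averaged 0.92 ± 0.25 in A2ARKO and 0.98 ± 0.34 in WT (SD, n = 3 each; exact permutation p = 0.7).

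Itgb5 (ENSMUSG00000022817, mm10 chromosome 16, 33829665 to 33949338, plus strand), which with Itgav forms a vitronectin receptor, read 59.22, 74.36 and 82.48 FPKM in A2ARKO, against 127.08, 83.88 and 73.59 FPKM in WT. The groups overlapped through A2ARKO replicates 2 and 3 and WT replicate 3. For Itgb5 the log2 difference was -0.37 with a 95% interval of -0.94 to 0.21 (limma adjusted p = 0.394), and it was -0.14 without WT replicate 1. By mean level over the 6 libraries Itgb5 (83.4 FPKM) and Itga5 (83.2 FPKM) were next to each other after Itgb1 (284 FPKM), and their order differed between libraries.

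Itgb3 (ENSMUSG00000020689, mm10 chromosome 11, 104608000 to 104670476, plus strand), the other main partner of Itgav and a chain also found on platelets and osteoclasts, read 1.41, 1.60 and 1.44 FPKM in A2ARKO, against 2.41, 3.51 and 5.08 FPKM in WT. All A2ARKO libraries lay below all WT libraries and varied little. The mean was 1.48 ± 0.102 FPKM in A2ARKO and 3.67 ± 1.34 FPKM in WT (SD, n = 3 each), 2.47-fold lower in A2ARKO. The log2 difference of -0.87 (standard error 0.21, 95% interval -1.39 to -0.36) had a limma adjusted p of 0.0714 and did not pass. It passed without WT replicate 1, at -1.08 with a limma adjusted p of 0.0241, and over all alternatives the adjusted p ranged from 0.0241 to 0.226. The macrophage and leukocyte markers summed to 27.2 to 55.5 FPKM in A2ARKO and 138.9 to 1972 FPKM in WT, without overlap. Of the 13 tested, 0 were called by limma (9 at an unadjusted p below 0.05), and 5 reached the level for testing through the WT libraries alone. Over all tested genes 5.08% were called and 24.7% had an unadjusted p below 0.05. Markers of osteoclasts (9 of 9 found, Dcstamp at 0 in all A2ARKO libraries) summed to 72.2 to 81.4 FPKM in A2ARKO and 100.1 to 170.5 FPKM in WT. Most of that was Ctsk, the gene of cathepsin K, and the other 8 summed to 9.7 to 11.4 FPKM in A2ARKO and 7.0 to 20.6 FPKM in WT, which overlapped. Markers of megakaryocytes and platelets (7 of 7 found, Gp6 at 0 in every library) summed to 3.4 to 5.2 FPKM in A2ARKO and 4.3 to 23.1 FPKM in WT. Their part in the Itgb3 values was not tested. The log2 ratio of Itgb3 to Itgb5 averaged -4.87 ± 0.23 in A2ARKO and -4.36 ± 0.81 in WT (SD, n = 3 each; exact permutation p = 0.4), and the difference of -0.50 became -0.94 when WT replicate 1 was left out and -0.13 when WT replicate 3 was.

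**Figure D4:**
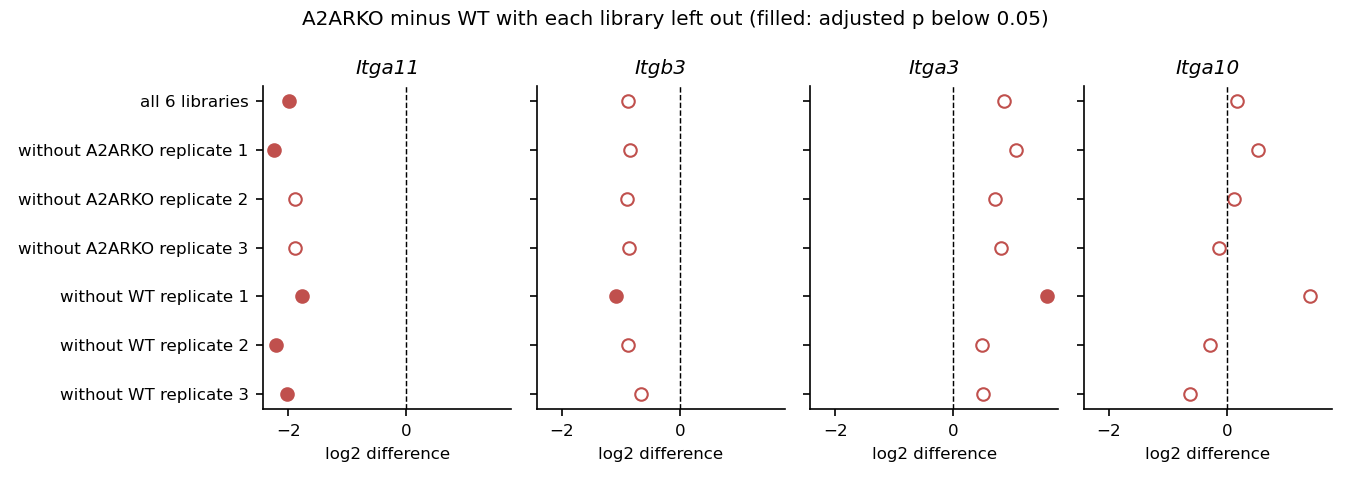
Log2 difference between A2ARKO and WT (x axis, one scale for the 4 panels) for Itga11, Itgb3, Itga3 and Itga10 with all 6 libraries and with each left out in turn; filled points passed at an adjusted p below 0.05. Itga11 stays between -2.23 and -1.77, whereas Itga10 moves from -0.62 to 1.41 and Itga3 passes only without WT replicate 1 among these fits.

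The genes whose profiles over the 6 libraries lay nearest to those of the 3 members with the smallest p-values were picked by the mean absolute difference of centred log2(FPKM + 1). Nearest to Itga11 were Kcne4, a regulatory subunit of potassium channels (0.193), Col1a2, a chain of type I collagen (0.243), and Ndnf, a secreted glycoprotein (0.257). Col1a2 read 716.28, 489.54 and 470.66 FPKM in A2ARKO, against 2424, 1399 and 1147 FPKM in WT, and like Itga11 it was highest in the replicate numbered 1 of each genotype. Nearest to Itgb3 were Rassf8 (0.058), the growth factor receptor adaptor Grb10 (0.0685) and Efhd1 (0.0784). Efhd1 read 0.19 to 0.23 FPKM in A2ARKO and reached the level for testing through the WT libraries alone (1.04 to 2.06 FPKM). By means, Efhd1 was 6.73-fold and Grb10 2.01-fold lower in A2ARKO. With 1 FPKM added, both had a log2 difference of -0.98, so nearness on this scale is not an equal fold change. Nearest to Itgb5 were Tm9sf2 (0.0406), Dag1, which encodes the matrix receptor dystroglycan (0.0478), and the lysosomal enzyme gene Idua (0.0485). These distances are on the log2 scale over 6 libraries and carry no test.

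Of the other 16 integrin subunits, 7 reached the level for testing, 1 rose, 1 fell and 5 did not pass, where 3.31% of all tested genes rose and 1.77% fell. For 3 of the 7 (Itga8, Itgb7 and Itgam) every library of 1 genotype was below 1 FPKM, so they reached that level only through the genotype in which they were higher. Both calls are among these 3, and nothing is read from their number. Their levels were low, 17.9 to 21.9 FPKM summed in A2ARKO and 20.2 to 66.5 FPKM in WT, where the 10 members summed to 489.0 to 509.6 FPKM in A2ARKO and 470.7 to 740.7 FPKM in WT. Itga8, a partner of Itgb1 in mesenchymal cells that binds nephronectin, fell, with 0.78, 0.91 and 0.96 FPKM in A2ARKO against 2.57, 1.82 and 2.78 FPKM in WT (log2 difference -0.84, limma adjusted p = 0.0311). Every A2ARKO library was below 1 FPKM and every WT library above it. Itgb7, best known from lymphocytes, rose, with 1.24, 2.74 and 2.43 FPKM in A2ARKO against 0.25, 0.38 and 0.25 FPKM in WT (log2 difference 1.25, limma adjusted p = 0.0324). The summed macrophage and leukocyte markers were lower in A2ARKO, as given above for Itgb3, and their part in the Itgb7 values was not tested. The call of Itga8 was lost without A2ARKO replicate 1, 2 or 3 (limma adjusted p of 0.11, 0.137 and 0.121) and with no filter (0.0919, in a range of 0.0203 to 0.142 over all alternatives). The call of Itgb7 was lost without A2ARKO replicate 2 or 3 (0.13 and 0.139) or WT replicate 2 or 3 (0.0691 and 0.0543), with no filter (0.0812) and with array weights (0.0749), in a range of 0.0228 to 0.139.

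Inside the cell, integrin tails bind talins and kindlins, which activate the receptor, and adaptors and kinases that signal from it. Of 30 tested genes of this machinery 1 rose, 0 fell and 29 did not pass (median log2 difference 0.05), and 1 of 30 is near the 3.31% of all tested genes that rose. The gene that rose was Bcar1, encoding the scaffold p130Cas, with 37.01, 32.7 and 33.54 FPKM in A2ARKO against 23.55, 21.37 and 19.74 FPKM in WT (log2 difference 0.65, limma adjusted p = 0.0266). Its groups did not overlap. The call was lost with each library scaled to an equal FPKM total (limma adjusted p = 0.073), with no filter (0.0504), without A2ARKO replicate 1, 2 or 3 (0.0885, 0.114 and 0.117) and without WT replicate 2 (0.0631), in a range of 0.0213 to 0.121 over all alternatives.

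Of 15 tested membrane proteins that work beside integrins, 3 rose, 0 fell and 12 did not pass (median log2 difference 0.34), where 3.31% of all tested genes rose. Ddr1, a receptor tyrosine kinase that binds collagen independently of integrins, read 73.69, 73.69 and 70.19 FPKM in A2ARKO against 33.3, 18.84 and 26.52 FPKM in WT (log2 difference 1.47, limma adjusted p = 0.0199). Plaur, the urokinase receptor, read 16.41, 19.75 and 16.04 FPKM in A2ARKO against 5.19, 7.21 and 4.81 FPKM in WT (log2 difference 1.46, limma adjusted p = 0.0117). Sdc1, the heparan sulfate proteoglycan syndecan-1, read 65.1, 67.85 and 71.22 FPKM in A2ARKO against 35.58, 40.2 and 38.12 FPKM in WT (log2 difference 0.83, limma adjusted p = 0.0119). In all 3 genes each A2ARKO library was above each WT library. The calls of Ddr1 and Plaur were lost when any A2ARKO library was left out, with limma adjusted p of 0.0789, 0.0993 and 0.0896 for Ddr1 and 0.0525, 0.0629 and 0.0558 for Plaur without A2ARKO replicates 1, 2 and 3. Ddr1 was also lost with no filter (limma adjusted p = 0.0504). The call of Sdc1 was lost without A2ARKO replicate 2 (0.0808) or 3 (0.0745) and at an equal FPKM total (0.0622). Over all alternatives the adjusted p ranged from 0.0106 to 0.113 for Ddr1, from 0.0121 to 0.0629 for Plaur and from 0.011 to 0.113 for Sdc1.

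Among the ligands, 1 of 16 tested collagen chains fell, 0 rose and 15 did not pass (median log2 difference -0.11), where 1.77% of all tested genes fell. This was Col6a3, a chain of the pericellular type VI collagen, with 81.69, 90.07 and 92.4 FPKM in A2ARKO against 182.66, 136.96 and 168.77 FPKM in WT (log2 difference -0.87, limma adjusted p = 0.0313). Its groups did not overlap, and the call was lost without A2ARKO replicate 1, 2 or 3 (limma adjusted p of 0.114, 0.148 and 0.126) or WT replicate 3 (0.0514) and with no filter (0.0722), in a range of 0.0252 to 0.159. Of the 16 collagen chains, 6 had an unadjusted limma p below 0.05, where 24.7% of all tested genes did. Without overlap, 6 of the 16 lay lower in A2ARKO and 0 higher, where 14.9% of all tested genes lay lower. None of 25 tested glycoprotein ligands passed by limma (median log2 difference -0.11). Of these 25, 7 had an unadjusted p below 0.05, near the 24.7% of all tested genes that did. Those with the smallest p were Fbln5, encoding the integrin-binding elastic fibre protein fibulin-5 (log2 difference -0.87, limma adjusted p = 0.0768), and Thbs2, encoding thrombospondin-2 (-1.13, limma adjusted p = 0.0915). Fbln5 passed without WT replicate 3 (limma adjusted p = 0.0261, in a range of 0.0261 to 0.236) and Thbs2 without WT replicate 1 (0.0243, in a range of 0.0243 to 0.281). Fn1, the fibronectin gene and ligand of the Itga5 receptor, read 1406, 2095 and 3118 FPKM in A2ARKO, against 5200, 1234 and 1129 FPKM in WT, with a log2 difference of 0.11 that did not pass.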

How the data were processed

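RNA sequencing was done on 6 libraries, 3 A2ARKO and 3 WT, grouped and numbered by their titles. The authors deposited FPKM per gene, 1 column per library, rounded to 2 decimals. HTSeq and the build mm10 are named in the labels, per the submitters' processing notes. Not stated in any source used here are the aligner, versions, annotation, gene lengths and strand setting. Without a strand setting, reads of overlapping genes cannot be told apart. FPKM are relative to a library total, so a very abundant transcript can lower the others.

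Genes with at least 1 FPKM in 3 or more libraries (11595) entered a limma fit (version 3.58.1, R 4.3.3, eBayes with intensity trend) on log2(FPKM + 1), two-sided, with Benjamini-Hochberg adjustment over all of them. This scale understates changes of low genes. The fit was tested on simulated data. The 5 log2 ratios between members took exact permutation tests, with Benjamini-Hochberg adjusted p of 0.667 to 1.0 over the 5. Depth was read from genes of at most 150 nt in GENCODE M21 (GRCm38, the assembly of mm10), where 99.4% or more of the low values were whole reads within 0.1 read. The authors' gene lengths may differ, so read numbers are approximate. With other lengths, the order of genes by level and their shares could also differ. The limma p-values set the difference between genotypes against the spread between litter pools, moderated over all tested genes. The exact permutation p-values give the share of relabellings of the libraries with a difference at least as large. Median SDs on the log2 scale were 0.0966 in A2ARKO and 0.192 in WT.

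The members, gene lists, ratios and alternatives were chosen with earlier results of these data known. All 10 members are named, with the 3 nearest profiles of 3 members. Genes were also named from the lists of other integrin subunits, adaptors and kinases, membrane partners, collagen ligands and glycoprotein ligands. From each of these came up to 4 called genes of largest change or, with none called, the 2 of smallest p. The rule was not applied to the cell type lists. Adora2a, Col2a1, Col1a1, Col3a1, Dcn, Dpt, Twist1, S100a4, Ctsk, Itgam, Dcstamp, Gp6, Fn1 and Gm42957 were named outside this rule, after their values were seen. The fibroblast and osteoclast lists were also split after that.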

Additional observations from a re-analysis of the deposited data

How the results depend on the processing

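Itga11 kept its direction in every alternative run, at -2.23 to -1.77 on the log2 scale. The number of genes called, 589 with all libraries and the settings above, was 213 when no filter was applied, 348 with libraries scaled to an equal FPKM total, 2 with a replicate block and 50 to 900 with each library left out. Of the calls, 51.1% were higher in A2ARKO at an equal FPKM total and 53.8% after quantile normalization, against 65.2% without rescaling. The number of members called was 0 with no filter and 0 with a replicate block, and 0 to 3 with each library left out. The number of tested members without overlap was 2 to 5 with each library left out, and it was 5 only without WT replicate 1. The share of all tested genes without overlap was not computed for these fits, so nothing is read from these counts. Replicate numbers give no sign of pairing: deviations of same-numbered libraries from their group means correlated at -0.521, -0.325 and -0.387. With the block Itga11 had the same difference and a limma adjusted p of 0.0607, and the ratios between members kept their values, with an exact sign-flip p of at least 0.25 by construction. Members that changed sign when a library was left out were Itga1 (-0.23 to 0.38), Itga10 (-0.62 to 1.41) and Itgav (-0.23 to 0.14). The ratio differences ranged from -3.18 to -1.39 for Itga11 to Itga10, from -1.21 to 1.0 for Itga1 to Itga10, from 0.05 to 0.67 for Itga5 to Itgav, from -0.94 to -0.13 for Itgb3 to Itgb5, and from -0.26 to 0.08 for Itgb1 to the summed alphas. With the replicate block Itgb7, Itga8, Bcar1, Ddr1, Plaur, Sdc1 and Col6a3 also missed the threshold, at limma adjusted p of 0.0607 to 0.159. The called fibroblast markers were not followed through the alternatives. The cause of these shifts was not tested. With 3 litters a genotype, no permutation test of a single value could pass.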

Other observations

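Itgbl1, whose product resembles an integrin beta chain but lacks the membrane anchor, was not on any list and was chosen after its values were seen. It read 1.74, 3.19 and 3.88 FPKM in A2ARKO, against 124.22, 28.15 and 9.41 FPKM in WT. Every A2ARKO library was below every WT library, and WT replicate 1 was far above the others. The log2 difference of -3.14 had a standard error of 0.87 and a limma adjusted p of 0.0945, so it did not pass.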
